A study of Mus musculus with 18 samples.

Results

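The genes described here encode 10 receptors that mark regulatory T (Treg) cells or act as checkpoints on T cells: Ctla4, Pdcd1, Lag3, Tigit, Cd28, Icos, Tnfrsf4, Tnfrsf18, Il2ra and Lrrc32. Their data were the differentially methylated region candidates, called listed regions below, that overlapped a gene body extended by 10 kb to each side. In CD4+ cells 152 of 553467 listed regions met this rule, and in CD11b+ cells 98 of 411770 did. Of these, 77 of 247222 and 40 of 172177 had more than 10 CpG cytosines, the size from which a region could be called hypomethylated.

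The methylation of DNA was measured by whole-genome bisulfite sequencing (WGBS) in splenic CD4+ and CD11b+ cells of Dnmt3a+/+ (WT) mice and of mice labelled Dnmt3aR878/+, named Dnmt3aR878H/+ below. DNMT3A is an enzyme that adds methyl groups to cytosines, and R878H is a substitution in its catalytic domain. The mutant mice were heterozygous, and the mutation was switched on by Vav1-iCre, which is active in blood-forming cells and their progeny, so both cell types carried it from their origin. Cells were separated from the spleen on magnetic columns, without a gate for Treg cells. Each genotype had 4 mice per cell type. In the mutant CD11b+ group, 6 library entries belonged to the 4 mice. The library titles carry an S number whose meaning the labels do not give. In CD4+ cells it ran from S204 to S207 in the mutant, and was S118, S119, S120 and S203 in WT. Genotype and this number series are thus nearly aligned in CD4+ cells and can hardly be told apart there. In CD11b+ cells WT had S110 to S113. The mutant had S114 to S117, and S201 and S202 for repeated entries, so no number range was shared by the genotypes there. The labels gave no age.

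Each listed region has 1 mean methylation level per genotype, in percent, averaged over its CpG cytosines and over 4 mice. In regions of 10 cytosines 100% of the means of either genotype lay, within 0.01, on a grid of 0.025 percentage points, which is the step given by 4 columns of whole percents. Values of individual mice and sequencing depths were not in the tables. The means therefore have no error here, no difference could be tested across mice, and the coverage behind a single level is unknown. The columns do not name the genotypes. The mean given first was taken for WT, since WT cells are the more methylated ones in the study, and all directions given here depend on this assignment. A region was called hypomethylated by the criteria of the study: more than 10 CpG cytosines, a mutant mean more than 20 percentage points below the WT mean, and a q-value below 0.05. The cytosines of both strands count, so a CpG dinucleotide can contribute a pair.

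Treg cells are a small part of the splenic CD4+ population and restrain the responses of other T cells. CTLA4, PD-1 (encoded by Pdcd1), LAG3 and TIGIT are inhibitory receptors that appear or rise on activated T cells, and CTLA4 is held at high levels by Treg cells. CD28 and ICOS belong to the same receptor family as CTLA4 but give costimulatory signals, and the 3 genes lie next to each other on chromosome 1. OX40 (Tnfrsf4) and GITR (Tnfrsf18) are members of the TNF receptor superfamily encoded side by side on chromosome 4, CD25 (Il2ra) is the α chain of the IL-2 receptor, and GARP (Lrrc32) holds latent TGF-β on the surface of Treg cells. The study asked how the mutation bears on Treg function, and the comparison here shows how these loci were methylated in the mixed CD4+ population. In such bulk samples a shift in the mixture of cell types and a change of methylation within a cell type cannot be told apart.

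The cell labels were checked at marker genes, by the WT level of CD4+ minus that of CD11b+ cells at overlapping regions. T-cell markers had a lower median level in CD4+ cells in 8 of 10 genes, from −24.3 percentage points at Thy1 to −0.175 at Tcf7, and not at Cd3e (1.72) or at Cd4 (1.9), which encodes the antigen used to separate the cells. Myeloid markers had one in 1 of 10 genes, Itgam, which encodes CD11b itself and differed by a median of −0.229 percentage points. B-cell markers had one in 0 of 6 genes. Some medians rest on few pairs of regions: 1 at Cd3d and Ms4a1, 2 at Cd3g and S100a8, and 3 at Thy1. Over all pairs of listed regions, 39.9% had the lower WT level in CD4+ cells.

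The stretches below come from the regions on which the account turns, and each shows the bases of mm10 (forward strand, RefSeq assembly) with every CpG in capitals. They are the 300-base windows with the most CpGs outside untranslated sequence: within the called region upstream of Ctla4 (chr1:60902967-60903266, 7 CpGs), in the body of Tnfrsf4 (chr4:156014952-156015251, 8 CpGs), in Sdf4 upstream of Tnfrsf4 (chr4:156008602-156008901, 6 CpGs), downstream of Tnfrsf18 (chr4:156031302-156031601, 8 CpGs), in Ptms upstream of Lag3 (chr6:124915538-124915837, 12 CpGs), and in the Lrrc32 region with the largest loss in CD4+ cells (chr7:98494228-98494527, 8 CpGs).
Ctla4, upstream: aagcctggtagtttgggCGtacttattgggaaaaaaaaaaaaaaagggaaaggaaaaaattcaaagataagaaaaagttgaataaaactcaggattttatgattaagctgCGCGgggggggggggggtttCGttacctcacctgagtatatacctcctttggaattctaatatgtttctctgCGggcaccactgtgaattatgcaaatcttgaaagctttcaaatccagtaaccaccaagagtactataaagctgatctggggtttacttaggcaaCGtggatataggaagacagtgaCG
Tnfrsf4, body: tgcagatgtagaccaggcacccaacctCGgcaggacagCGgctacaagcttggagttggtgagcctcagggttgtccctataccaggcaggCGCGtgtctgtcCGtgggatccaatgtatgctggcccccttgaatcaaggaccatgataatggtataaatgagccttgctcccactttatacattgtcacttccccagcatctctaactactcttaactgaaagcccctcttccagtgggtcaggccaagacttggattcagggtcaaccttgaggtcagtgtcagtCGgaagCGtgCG
Tnfrsf4, upstream in Sdf4: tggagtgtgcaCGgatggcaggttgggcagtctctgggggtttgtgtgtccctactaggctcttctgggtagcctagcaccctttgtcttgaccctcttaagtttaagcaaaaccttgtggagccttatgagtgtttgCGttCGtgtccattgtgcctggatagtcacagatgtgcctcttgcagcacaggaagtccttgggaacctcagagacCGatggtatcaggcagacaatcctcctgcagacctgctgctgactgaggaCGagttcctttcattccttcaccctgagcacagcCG
Tnfrsf18, downstream: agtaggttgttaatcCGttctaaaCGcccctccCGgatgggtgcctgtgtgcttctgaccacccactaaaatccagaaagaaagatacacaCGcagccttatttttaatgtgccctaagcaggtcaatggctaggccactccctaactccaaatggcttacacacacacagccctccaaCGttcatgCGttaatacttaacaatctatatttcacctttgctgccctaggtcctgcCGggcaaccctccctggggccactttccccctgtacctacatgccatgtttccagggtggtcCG
Lag3, upstream in Ptms: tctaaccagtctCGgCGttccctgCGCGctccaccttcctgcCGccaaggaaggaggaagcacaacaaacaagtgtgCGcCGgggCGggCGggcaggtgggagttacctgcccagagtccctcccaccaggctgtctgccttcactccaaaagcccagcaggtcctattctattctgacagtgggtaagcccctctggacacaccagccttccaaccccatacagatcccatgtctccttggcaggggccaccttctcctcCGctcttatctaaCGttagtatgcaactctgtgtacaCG
Lrrc32, inner start: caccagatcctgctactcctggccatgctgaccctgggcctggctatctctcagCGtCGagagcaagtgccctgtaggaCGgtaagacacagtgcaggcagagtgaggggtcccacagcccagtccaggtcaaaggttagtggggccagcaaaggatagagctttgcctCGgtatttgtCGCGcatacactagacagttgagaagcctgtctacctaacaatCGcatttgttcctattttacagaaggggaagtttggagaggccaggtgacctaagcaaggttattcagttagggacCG
The windows hold 6 to 8 CpGs each, except that in Ptms, which holds 12.

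In CD4+ cells nearly every listed region near the receptor genes was less methylated in Dnmt3aR878H/+ than in WT mice, as was nearly every listed region of the genome. The mutant mean was lower in 148 of 152 regions (97.4%), beside 95.5% of all 553467, with a median level of 83.5% in WT and 68.9% in mutant cells. Among the 77 regions with more than 10 CpG cytosines, 76 were lower (98.7%, beside 97.3% of all regions of this size), and the median difference, mutant minus WT, was −11.25 percentage points (interquartile range over regions −17.2 to −7.23), beside −6.85 over all 247222 such regions. Regions were called hypomethylated in 7 of the 77 (9.09%), beside 1.49% of all listed regions of this size. A loss above 20 percentage points without regard to the q-value was found in 10 of the 77 (13.0%), beside 6.89%. The 7 called regions lay at 4 genes, Ctla4, Lag3, Tnfrsf4 and Tnfrsf18, and none was near the other 6.

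CD11b+ cells served as the reference. There, 96 of 98 regions were lower in the mutant (98.0%), beside 93.4% of all 411770, and the median difference of the 40 regions with more than 10 CpG cytosines was −8.49 percentage points (interquartile range −13.6 to −4.84), beside −6.6 over all 172177. Of the 40, 2 were called (5%), beside 1.38% of all listed regions of this size, and 7 had a loss above 20 percentage points (17.5%), beside 7.75%. The 2 calls lay at Lag3 and Tnfrsf18, at places that were also called in CD4+ cells. No region near the 10 genes was called hypermethylated in either cell type, and over all regions there were 3 such calls in CD4+ and 52 in CD11b+ cells. The largest gain near any of the genes was 5.03 percentage points.

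**Figure D1:**
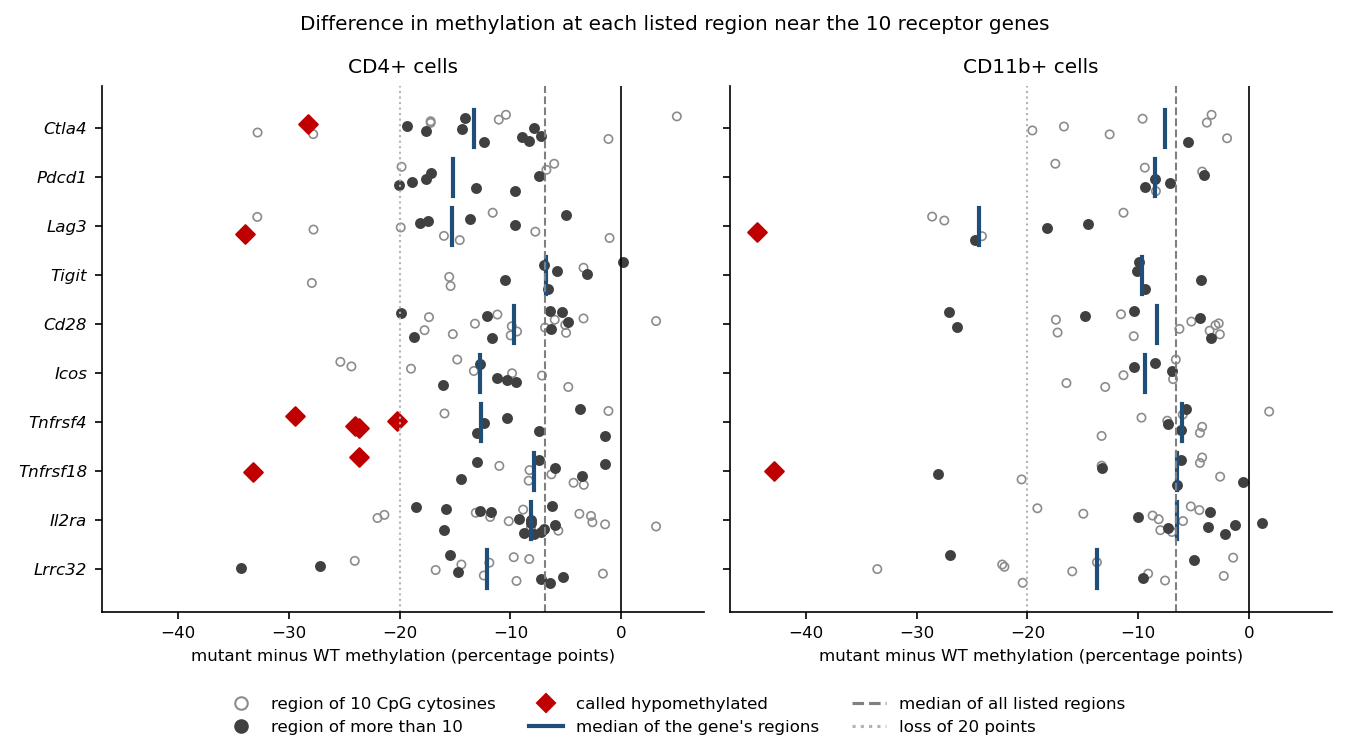
Mutant minus WT methylation, in percentage points, of each listed region near each gene (rows), in CD4+ cells (left) and CD11b+ cells (right); each point is 1 region and the vertical bars are medians over a gene's regions. Almost all points lie left of 0, and the 7 calls in CD4+ cells (red diamonds) sit at Ctla4, Lag3, Tnfrsf4 and Tnfrsf18, where the region shared by the windows of the last pair is drawn in both rows.

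The genes were ranked by the median difference over all their listed regions in CD4+ cells. Lag3 had the largest median loss (−15.3 percentage points), followed by Pdcd1 (−15.2), Ctla4 (−13.3), Icos (−12.75), Tnfrsf4 (−12.7), Lrrc32 (−12.15), Cd28 (−9.64), Il2ra (−8.15), Tnfrsf18 (−7.84) and Tigit (−6.81). For 9 of the 10 genes the median was below that of all listed regions, −6.85. The interquartile ranges of neighbours in this order overlapped, and those of Lag3 (−19.5 to −10.1) and Tigit (−14.2 to −3.99) overlapped too, so the order separates no gene from the next. The order also depends on the flanks, which reach the neighbouring genes Zbtb20 at Tigit and Ttll10 at Tnfrsf18. Over regions within 1 kb of a start or in the body, the CD4+ medians were −23.6 at Tnfrsf4, −17.8 at Lag3, −17.4 at Pdcd1 and −17.2 at Ctla4. They were −15.7 at Lrrc32, −15.5 at Tigit, −12 at Icos, −9.4 at Cd28, −9.05 at Il2ra and −8.49 at Tnfrsf18. In CD11b+ cells the median over a gene's whole window was below that of all listed regions, −6.55, for 7 genes, with Lag3 (−24.4) and Lrrc32 (−13.7) the largest.

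Ctla4 had 18 listed regions in CD4+ cells, of which 17 were lower in the mutant. The called region at chr1:60902572-60903855 held 31 CpG cytosines, more than all but 1 other region of the 10 genes. Its level was 80.6% in WT and 52.4% in mutant cells, a difference of −28.2 percentage points. Its centre lay at −5812 bp from the start of the main coding transcript (chr1:60909025), in a stretch that belongs to the gene only through a long noncoding transcript that starts at chr1:60887000. In CD11b+ cells 2 short regions were listed within or across this interval. At chr1:60903408-60903573 their level was 91.55% in WT and 88.2% in mutant cells, and at chr1:60903726-60904318 it was 95.2% and 85.6%. These CD11b+ regions covered 12.9% and 10.1% of the called CD4+ region, and no CD11b+ region was listed over the rest of it. Each held 10 CpG cytosines and could not be called. In both, WT CD11b+ cells had a higher level than the WT CD4+ mean of the whole called region. The mutant CD11b+ level stayed within 10 percentage points of WT.

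Further losses lay within the main transcript of Ctla4 and just behind it. From the last bases of exon 2 into intron 3 (chr1:60912754-60913449) the level was 74.5% in WT and 41.7% in mutant CD4+ cells. Over the end of the last exon, with untranslated sequence, and the bases behind it (chr1:60915154-60916207) it was 65.4% and 37.6%. Both regions had 10 CpG cytosines, so they could not be called. The adjoining region with most of exon 2, chr1:60912374-60912753, had 86.4% and 68.8%. CD11b+ cells had 58.25% and 38.7% over most of the first interval and 58.7% and 46.15% over the second. The start of the main transcript was already low: 14.2% in WT and 6.33% in mutant CD4+ cells at chr1:60908936-60909077. In CD11b+ cells the start was higher, with 48.1% and 31.4% at chr1:60908829-60908976. One region far upstream, chr1:60882782-60883796, was higher in the mutant, with 36.15% in WT and 41.2% in mutant CD4+ cells, and this was the largest gain near any of the genes.

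Pdcd1 was lower in the mutant in all 10 of its CD4+ regions, without a call. Intron 1, the long first intron, held 5 of them, with differences from −20.1 to −7.43 percentage points. The largest loss was at chr1:94050852-94051313, centred 1470 bp into the gene, with 72.5% in WT and 52.4% in mutant cells, a difference of −20.1 percentage points that passed the size criterion but not the q-value. At chr1:94047571-94048567, an interval listed in both cell types, CD4+ cells had 71.3% and 52.4% and CD11b+ cells 84.1% and 77.0%. The region just inside the transcript start, chr1:94051671-94052546, had 48.5% in WT and 35.4% in mutant CD4+ cells. In CD11b+ cells a region just before the start, chr1:94053102-94053826, had 53.5% and 44.0%. WT levels were lower in CD4+ than in CD11b+ cells at 6 of 7 overlapping pairs of regions, with a median difference of −11.3 percentage points.

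Lag3, whose product binds MHC class II, was lower in the mutant in all 14 CD4+ and all 8 CD11b+ regions. The call in CD4+ cells was at chr6:124915523-124916027 (21 CpG cytosines), with 84.1% in WT and 50.2% in mutant cells, a difference of −33.9 percentage points. In CD11b+ cells the region starting at the same base, chr6:124915523-124915885, had 76.8% and 32.4%, and its difference of −44.4 was the largest near any of the 10 genes. The CD4+ region is centred at −4070 bp from the Lag3 start but lies within intron 1 of Ptms, the neighbouring gene that encodes parathymosin, so it cannot be assigned to Lag3 by position alone. A second loss, in regions of 10 CpG cytosines that could not be called, reached into the last exon of Lag3. CD4+ cells had 83.8% in WT and 50.9% in mutant cells at chr6:124904491-124904806, and CD11b+ cells 75.5% and 46.9% at chr6:124904484-124904967.

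A place of low methylation in WT lay where intron 2 of Lag3 meets exon 3. At chr6:124910316-124910604 it was 17.25% in WT and 7.67% in mutant CD4+ cells, and at chr6:124910258-124911066 it was 29.3% and 14.8% in CD11b+ cells. The next CD4+ region, chr6:124909137-124910305, which holds most of exon 3 and reaches exon 4, was higher, with 61.2% and 43.1%. Before the start, at chr6:124912158-124912560, CD4+ cells had 83.3% and 63.4%. The CpG-rich start of Ptms (chr6:124917131-124917507), with 48 CpG dinucleotides of which only 10 cytosines were counted, was at 1.05% and 0%. The 8 CD11b+ regions had differences from −11.3 to −44.4, so the large median of the Lag3 window did not come from the called region alone. Part of these regions overlapped Ptms. Over the 3 within 1 kb of the Lag3 start or in its body, the CD11b+ median was −27.5 percentage points.

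Tigit had 10 listed regions in CD4+ cells, and 9 were lower in the mutant. The gene itself held 4, from exon 2 to intron 3. Among regions with more than 10 CpG cytosines the largest loss was in intron 3 at chr16:43656496-43656662, with 93.1% in WT and 82.6% in mutant cells. A region of 10 cytosines in intron 2, chr16:43661521-43661851, differed more, with 76.9% and 49.0%. The 5 regions downstream lay in Zbtb20, a large transcription factor gene, and were highly methylated in both genotypes, with differences from −6.98 to 0.131 percentage points. In CD11b+ cells none of the 4 listed regions lay in Tigit, so the genic losses have no counterpart to set beside them.

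Cd28 had 22 regions in CD4+ cells, of which 21 were lower. The largest loss lay far upstream of the coding transcript, at chr1:60715496-60716234, with 86.8% in WT and 66.9% in mutant CD4+ cells. CD11b+ cells had a larger one there, with 83.3% and 56.2% at chr1:60715653-60716234. The start and the first part of intron 1 were among the least methylated places in WT CD4+ cells. At the region before the start, chr1:60745265-60745994, the levels were 34.8% and 29.9%. At chr1:60748861-60749511 they were 28.3% and 15.1%, and the next 2 regions downstream differed by −5.05 and −9.88 percentage points. CD11b+ cells had 57.3% and 30.9% at chr1:60749132-60749634, so WT CD11b+ cells were more methylated there and the mutant approached the level of WT CD4+ cells.

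Icos was lower in the mutant in all 13 CD4+ regions. Among regions with more than 10 CpG cytosines the largest loss was at the end of the gene, chr1:60999774-61000410 in exon 5, with 91.6% in WT and 75.5% in mutant cells. Shorter regions differed more. At chr1:60975099-60975441, centred at −2657 bp from the start, the levels were 79.5% and 54.1%, and at chr1:60989060-60989457 in intron 1 they were 82.5% and 58.15%. Intron 1 also held a place with low methylation in WT CD4+ cells, chr1:60990232-60990558, with 21.65% and 8.35%. The CD11b+ region across it, chr1:60989905-60990559, had 56.0% and 45.7%. All 8 CD11b+ regions were lower in the mutant, with differences from −16.5 to −6.6.

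**Figure D2:**
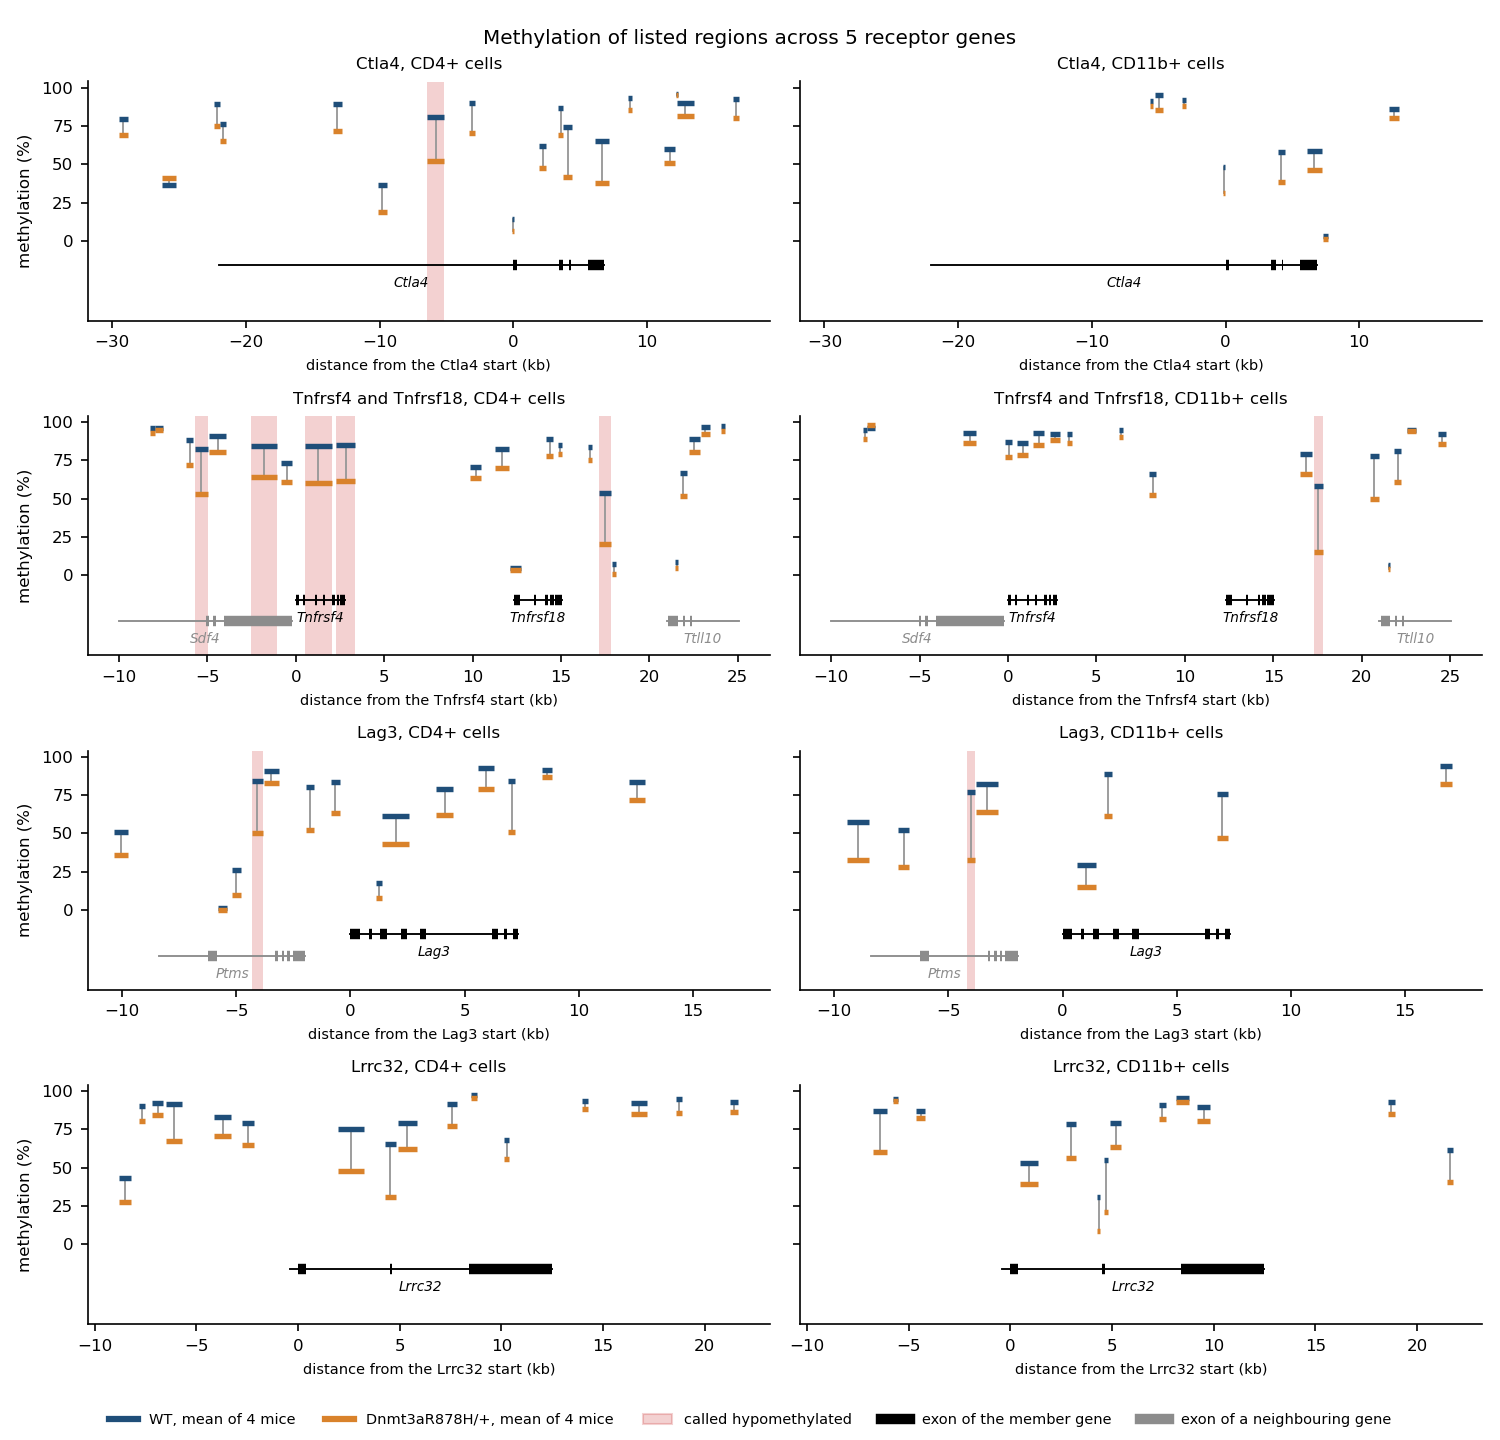
WT (blue) and Dnmt3aR878H/+ (orange) mean methylation in percent of each listed region across Ctla4, Tnfrsf4 with Tnfrsf18, Lag3 and Lrrc32, by distance in kb from the start of the main transcript, in CD4+ cells (left) and CD11b+ cells (right); bars span the regions, with a minimum drawn width, red bands are called regions, and exons lie below. Tnfrsf4 has 4 bands in CD4+ cells and none in CD11b+ cells, whereas the bands downstream of Tnfrsf18 and upstream of Lag3 appear in both.

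Tnfrsf4 held the most calls of the 10 genes. All 12 of its CD4+ regions were lower in the mutant, and 4 were called. In the body, from exon 2 to intron 4 (chr4:156014350-156015869, 32 CpG cytosines), the level was 84.1% in WT and 60.1% in mutant cells. Over its last exons and the bases behind the gene (chr4:156016124-156017189) it was 85.2% and 61.55%. Upstream, in the neighbouring gene Sdf4, which encodes a calcium-binding protein of the Golgi, the levels were 84.3% and 64.1% over the last exon (chr4:156011288-156012799). The fourth call, in intron 4 and exon 5 of Sdf4 (chr4:156008118-156008901), had 82.7% and 53.25%. The 4 calls thus lay on both sides of the Tnfrsf4 start, with WT levels between 82.7% and 85.2%. The region just before the start, chr4:156013008-156013647, had 73.4% and 61.0%.

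In CD11b+ cells the differences listed around Tnfrsf4 were smaller, and no region was listed across the call in intron 4 and exon 5 of Sdf4. Of the 5 regions named next, 4 had 10 CpG cytosines and could not be called. At chr4:156014350-156014991 the levels were 86.15% in WT and 78.8% in mutant cells, at chr4:156015251-156015903 they were 92.7% and 85.4%, and at chr4:156016235-156016781 they were 92.55% and 88.3%. In Sdf4 the region at chr4:156011305-156012026 had 92.65% and 86.7%. At the Tnfrsf4 start, chr4:156013692-156014089, the levels were 87.1% and 77.4%. No CD11b+ region near Tnfrsf4 had a loss above 13.3 percentage points, and 9 of the 10 were lower in the mutant.

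The windows of Tnfrsf4 and Tnfrsf18 overlap, because 9551 bp separate the genes, and 4 regions of each table belong to both. Tnfrsf18 was lower in the mutant in all 14 CD4+ regions. Its start was nearly unmethylated in both genotypes, with 4.91% in WT and 3.48% in mutant CD4+ cells at chr4:156025974-156026587. Just before it, at chr4:156025131-156025920, the levels were 82.75% and 69.8%. The called region of its own lay behind the gene, at chr4:156030980-156031673, centred 5162 bp from the start, where Gm16008, an antisense transcript gene, has an exon. CD4+ cells had 53.7% in WT and 20.4% in mutant cells there, a difference of −33.3 percentage points. CD11b+ cells had 58.0% and 15.1% at chr4:156031120-156031673, a difference of −42.9 that was also called. The adjoining region, chr4:156031705-156031930, was at 7.5% and 1.2% in CD4+ cells, so the call sat on the edge of an unmethylated stretch. In CD11b+ cells no region was listed within Tnfrsf18 or at its start.

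Il2ra had the most regions, 27 in CD4+ cells, of which 26 were lower in the mutant and none was called. The largest loss among those with more than 10 CpG cytosines was near the beginning of intron 1, at chr2:11645082-11645739, with 71.4% in WT and 52.8% in mutant cells. Farther into intron 1, a pair of regions of 10 cytosines had losses above 20 percentage points. At chr2:11664417-11664773 the levels were 77.2% and 55.8%, and at chr2:11667224-11667616 they were 79.55% and 57.55%. The former adjoined a place of low methylation, chr2:11664143-11664416, with 12.05% and 8.28%. CD11b+ cells had 62.4% and 47.4% at chr2:11664464-11664774, where a WT level below that of CD4+ cells went with a smaller loss. Of the 16 CD11b+ regions 15 were lower, and the largest loss was at chr2:11655008-11655851 in intron 1, with 36.05% and 16.95%.

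Lrrc32 had the largest loss of any of the 152 CD4+ regions, although it was not called. At chr7:98493954-98494527 the level was 65.2% in WT and 30.9% in mutant cells, a difference of −34.3 percentage points over 14 CpG cytosines. The region overlaps exon 2 and the start of a shorter coding transcript. In intron 1, at chr7:98491669-98492938, it was 75.4% and 48.2% over 23 cytosines. Both differences passed the size criterion and not the q-value. CD11b+ cells showed the same places low in the mutant. Across the first interval they had 30.85% and 8.78% at chr7:98493953-98494120 and 55.0% and 21.4% at chr7:98494286-98494527, and across the second 78.5% and 56.25% at chr7:98492450-98492938. These CD11b+ regions had 10 cytosines each and could not be called. Behind the inner start, CD4+ cells had 79.25% and 62.5% at chr7:98494628-98495524 and CD11b+ cells 79.5% and 63.5% at chr7:98494611-98495142. Near the main start a region was listed in CD11b+ cells alone, with 52.85% and 39.1% at chr7:98490198-98491067. All 16 CD4+ and all 13 CD11b+ regions of Lrrc32 were lower in the mutant.

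**Figure D3:**
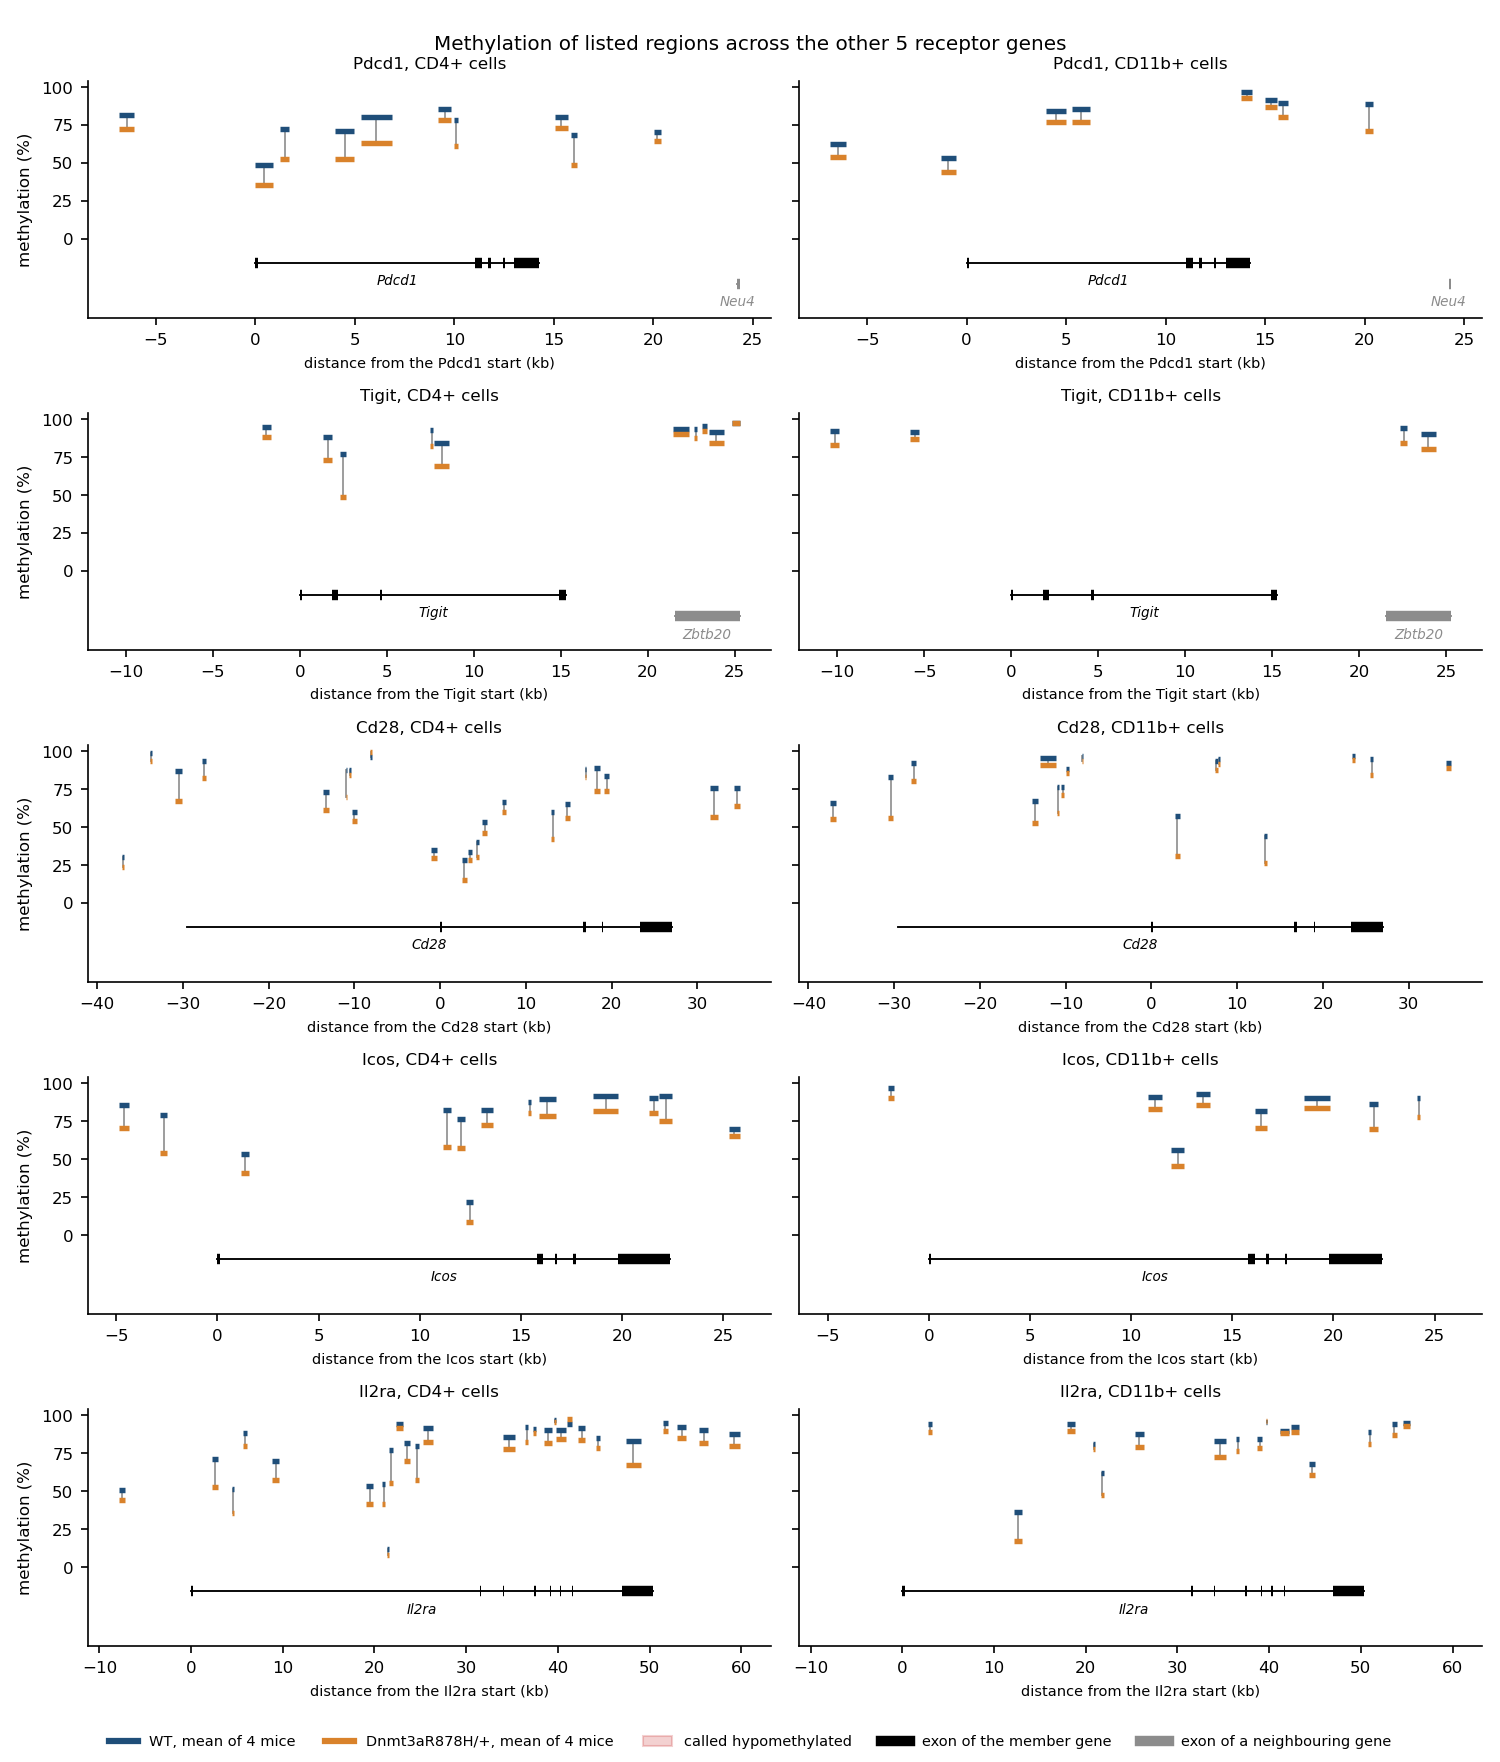
WT (blue) and Dnmt3aR878H/+ (orange) mean methylation in percent of each listed region across Pdcd1, Tigit, Cd28, Icos and Il2ra, by distance in kb from the start of the main transcript, in CD4+ cells (left) and CD11b+ cells (right); bars span the regions, with a minimum drawn width, and exons lie below. No region is called here, and the orange bars lie below the blue ones in all 10 Pdcd1 and all 13 Icos regions of CD4+ cells.

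Of the 7 called CD4+ regions, 4 lay in a flank and not in the body of a receptor gene, 3 of them inside Sdf4 or Ptms. The other 3 were the Ctla4 region and those in the body and at the end of Tnfrsf4. The called regions were longer than the other regions with more than 10 CpG cytosines, with a median of 1066 bp against 639.5 bp, and held more CpG dinucleotides, with a median of 13 against 9. Their CpG density was similar, with a median of 1.40 CpGs per 100 bp against 1.54. The number of CpGs is part of the call rule, so these figures describe the calls and support nothing else. Each called region held at least 11 CpG dinucleotides in its sequence. Just inside the size criterion lay the Pdcd1 region with −20.1 percentage points, which failed the q-value, and the called Sdf4 region with −20.2, and just outside it the Cd28 region with −19.9.

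The losses differed with the WT level. In CD4+ cells the median difference was −6.34 percentage points over the 16 regions with a WT level under 40%, −14.5 over the 46 with 40% to 80%, and −9.35 over the 90 with 80% or more. Over all listed regions these medians were −6.33, −13.2 and −6.11. Among regions with more than 10 CpG cytosines, 6 of the 46 with a WT level of 80% or more were called (13.0%), beside 0.714% of all such regions. In the range from 40% to 80%, 1 of 25 was called (4%), beside 4.67%. The calls thus lay mostly where WT cells were highly methylated, and 5 of these 6 regions surround Tnfrsf4 or lie upstream of Ctla4. In CD11b+ cells both calls had a WT level between 40% and 80%, 2 of 11 (18.2%), beside 4.49%.

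Regions within 1 kb of a coding transcript start were listed for 7 of the 10 genes in CD4+ cells, all 10 of them lower in the mutant. Their median level was 69.3% in WT and 47.7% in mutant cells, and their differences ran from −34.3 to −1.43 percentage points. Icos, Tigit and Il2ra had none, which says only that no region was listed there. Introns had a median difference of −12.75 (55 regions), exons −11.1 (24 regions), upstream flanks −11.15 (30 regions) and downstream flanks −7.23 (37 regions). The 4 regions in the windows of both Tnfrsf4 and Tnfrsf18 are counted once for each gene here.

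CD4+ and CD11b+ regions overlapped in 83 pairs. The tables were divided into regions separately, so the intervals of a pair differ, a region can be in several pairs, and the values are a description. The loss was larger in CD4+ cells in 49 of the 83 pairs (59.0%), beside 52.2% of 279942 pairs over all listed regions. By gene, Ctla4 had the larger loss in CD4+ cells in 6 of 7 pairs, with medians of −27.8 percentage points in CD4+ and −9.6 in CD11b+ cells. Tnfrsf4 had it in 6 of 7 pairs, with −23.6 and −5.98. Lag3 leaned the other way, with 2 of 6 pairs and medians of −18.1 and −22.9, as did Cd28 with 5 of 14 pairs and −8.78 and −11.0, and Tigit with 0 of 3 pairs and −5.75 and −10.1. The Tigit pairs all lay in its downstream flank and overlapped Zbtb20, so they do not compare the cell types within Tigit itself. Lrrc32 had large losses in both, −16.75 and −20.4, with the larger one in CD4+ cells in 7 of 11 pairs. The remaining medians in CD4+ and CD11b+ cells were −9.60 and −8.5 for Pdcd1, −13.3 and −10.4 for Icos, −8.35 and −13.3 for Tnfrsf18 and −8.15 and −6.45 for Il2ra. The Tnfrsf18 pairs, too, all lay in its downstream flank, most of them in the neighbouring gene Ttll10. They do not compare the cell types within Tnfrsf18 itself. With pairs held to an overlap of at least 50% of both regions, 45 remained, and the medians of some genes moved. Ctla4 had the larger loss in CD4+ cells in 4 of 4 such pairs, with −23.5 and −9.06. For Tnfrsf4 only 3 pairs were left, with medians of −3.69 and −4.23. Those at chr4:156005621-156005865 and chr4:156005882-156006334 lay in Sdf4, with −3.69 and −1.15 in CD4+ and −5.71 and 1.825 in CD11b+ cells. The 1 pair in Tnfrsf4 itself, with the called region at its end, had −23.6 and −4.23. At Lag3 the medians were −32.85 and −28.6 (3 pairs), at Tnfrsf18 −14.5 and −20.5 (3 pairs) and at Lrrc32 −15.7 and −12.5 (4 pairs). Both Tnfrsf18 values were those of a pair in Ttll10. The order of the medians thus turned at Lag3 and Lrrc32, but the balance of the pairs did not. CD4+ cells had the larger loss in 1 of these 3 Lag3 pairs and in 3 of these 4 Lrrc32 pairs. No difference between the cell types was tested, because the tables hold no value per mouse. WT levels were lower in CD4+ cells in 41 of the 83 pairs (49.4%), beside 39.9% of all pairs, and the median difference of 0.3 percentage points stood for genes on both sides of 0, from −11.3 at Pdcd1 to 7.77 at Lag3.

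**Figure D4:**
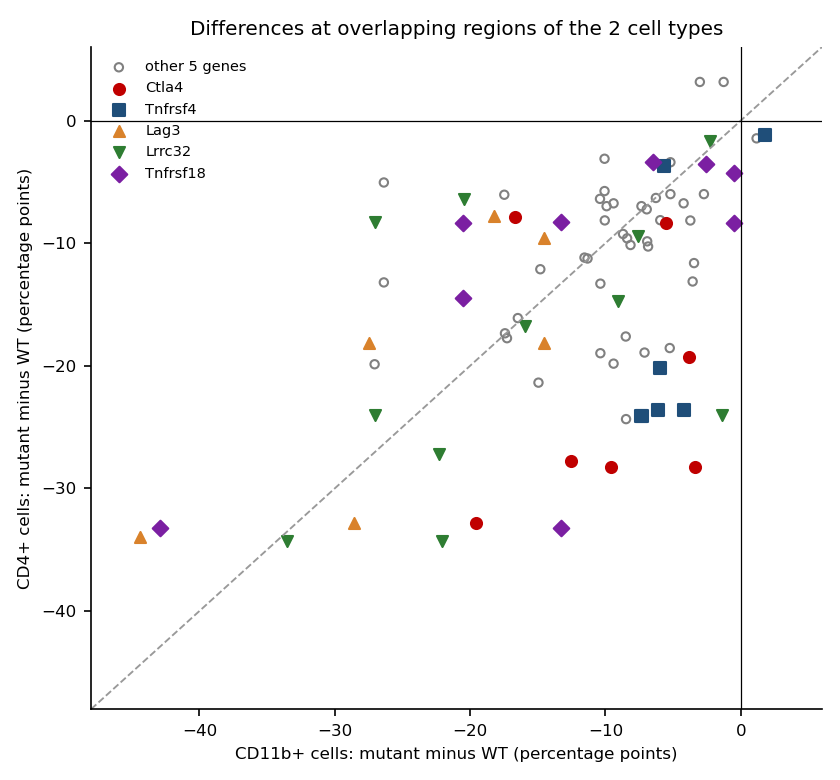
Mutant minus WT methylation in percentage points in CD4+ cells (vertical axis) against CD11b+ cells (horizontal axis) at the 83 overlapping pairs of listed regions, with 5 genes marked; the dashed line shows equal differences. The Ctla4 and Tnfrsf4 points below −20 in CD4+ cells lie right of the line, at smaller losses in CD11b+ cells, while those of Lag3 and Lrrc32 lie on both sides of it.

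Related genes were counted in the same way. Of 22 other Treg genes, 6 had a called region in CD4+ cells (Ikzf2, Itgae, Entpd1, Il10, Prdm1 and Tgfb1), beside 4 of the 10 receptor genes and 13.4% of 19156 protein-coding genes with a region of this size. At Il10, an anti-inflammatory cytokine of Treg and other T cells, the largest loss was at chr1:131010318-131010736, with 68.65% in WT and 26.45% in mutant CD4+ cells. It was taken over all listed regions, whether or not they could be called, so it need not be the called region. Foxp3, which encodes the transcription factor that defines Treg cells, had no call, and the median difference of its 9 regions with more than 10 CpG cytosines was −17.4 percentage points in CD4+ and −16.2 over 6 in CD11b+ cells. Of 17 other checkpoint and costimulatory receptor genes, 2 had a call in CD4+ cells, Cd6 and Cd200r1. Of the ligand genes, 5 of 13 with a region did (Cd86, Tnfsf4, Cd274, Pdcd1lg2 and Tgfb1), among them both genes for the ligands of PD-1. In CD11b+ cells the numbers were 2 of 22, 0 of 17 and 1 of 14, beside 2 of the 10 receptor genes and 9.86% of 18390 genes. Genes with more listed regions have more chances of a call, and these counts do not take that into account. The median differences of the 3 lists in CD4+ cells were −10.3, −9.14 and −8.53 percentage points, beside −11.25 for the receptor genes. Calls were not limited to such genes. Among the marker genes, 3 of 10 myeloid, 2 of 10 T-cell and 1 of 6 B-cell genes had a call in CD4+ cells. Their median differences were −10.5, −9.52 and −8.34 percentage points.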

How the data were processed

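WGBS of splenic CD4+ and CD11b+ cells from 4 WT and 4 Dnmt3aR878H/+ mice per cell type was analysed. Samples were grouped by the genotype and cell type in the labels, and repeated entries of a mouse counted as 1 mouse. Per the study's methods, the authors aligned reads to mm10 by BISCUIT, and regions were found by metilene from CpG methylation ratios. Its parameters, a minimum coverage and the versions are not given in the sources used here. The submitters' processing notes name FastQC.

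For each region, the 2 deposited tables hold both genotypes' mean levels in percent, a count of CpG cytosines and a q-value. The deposited q-values were used only as a call criterion. The authors' columns of differences and p-values were not used, and differences were computed from the means. There were 0 columns of per-sample values without a sample. The study's methods name a coverage for the sequencing as a whole, and the depth of a mouse or region is not in the tables, so it stays unknown here.

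Coordinates are mm10, counted from 1. The deposited starts count from 0: after adding 1, the first base was part of a CpG in 100% of 20000 sampled regions per table. CpG cytosines numbered a median of 1.5 (CD4+) and 1.43 (CD11b+) per CpG dinucleotide. Gene models came from GENCODE release 21. The main transcript was the longest principal coding one. The code of the call rule was run on 50000 simulated regions and returned the 200 planted ones, with 0 extra. Planted regions met the criteria and the others did not by construction, so this checks the code alone.

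The 10 genes, the lists and the rule for the regions named were chosen with earlier results of these data known. The rule named every called region, each gene's largest loss, every region within 1 kb of a coding start, and gains over 10 percentage points, of which there were none. Other regions named were chosen after their values were seen. Alternatives varied the thresholds, flank, overlap, weighting and gene model. Python 3.11.15 with pandas 2.3.3, pyranges 0.1.4 and pysam 0.24.0 was used.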

Additional observations from a re-analysis of the deposited data

How the results depend on the processing

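Of 71 combinations of a result and an alternative, 54 gave a similar value, 17 moved it and 0 reversed its direction. The 7 called regions in CD4+ cells became 4 with a q-value below 0.01, 2 with a loss above 30 percentage points, 3 with more than 20 CpGs, 3 within gene bodies alone, and 4 without regions that touch another protein-coding gene. Those 4 are the Ctla4 region, the pair in Tnfrsf4 and the one behind Tnfrsf18. This last alternative was added once the data had been seen. So were a count of CpG dinucleotides in place of cytosines and the overlap of at least 50% applied gene by gene. The count of dinucleotides left 7 calls of 26 regions, and its share over all listed regions was not computed. In CD11b+ cells the 2 calls became 7 of 40 without a q-value threshold (17.5%, beside 7.75%). They became 0 of 2 with more than 20 CpGs (beside 9.69%) and 0 of 18 within gene bodies (beside 1.38%). Without regions that touch another gene, 1 of 33 was left (3.03%, beside 1.38%). In each case fewer or more regions met the criteria by construction. The median difference in CD4+ cells was −25.6 percentage points over the 6 regions with more than 20 CpGs and −13.4 within gene bodies. The share of regions lower in the mutant became 100% in CD4+ cells with more than 20 CpGs, within gene bodies, with a flank of 5 kb, for regions wholly inside the window and without regions that touch another gene, and 100% in CD11b+ cells with more than 20 CpGs. No paired analysis was possible because the tables hold group means only, and for the same reason no mouse could be left out. The unknown depth of single regions limits every level, and a region of 10 CpG cytosines can rest on 5 CpG dinucleotides.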
